A study of Mus musculus with 8 samples.

Results

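Collagen genes were followed across 4 lines of mouse embryonic stem cells that differ at Gtf2i or at Hprt. The members are the genes whose symbol in the platform annotation has the form Col, a number, a and a number, each represented by its probe set with the highest mean over 8 arrays. This gave 42 collagen genes, with 82 probe sets, of 18193 genes with a named probe set. Total RNA was hybridised to Affymetrix mouse expression arrays, 2 per line, and all levels below are log2 intensities. The exon 2 mutant was made by gene targeting in R1 stem cells and carries the genotype Δexon2/+, a Gtf2i allele without exon 2 beside an intact one. The trap line is a gene-trap derivative of AB2.2 stem cells, and its genotype label gives a heterozygous Gtf2i mutation together with the Hprt mutation (HPRT -/-:GTF2I +/-). The Hprt knockout carries HPRT -/- with no mutation named at Gtf2i, and the wild-type group carries none at either gene. The labels name neither the parent line of the Hprt knockout nor that of wild-type, and they do not say whether a mutant line is 1 clone. Every line was cultured with the cytokine LIF, which keeps stem cells undifferentiated, on feeder cells whose kind the labels do not give, so that feeder RNA may be part of every sample. Gtf2i encodes the transcription factor TFII-I and Hprt a purine salvage enzyme.

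Collagens are secreted or membrane proteins built of 3 chains wound into a triple helix, and each chain has its own gene. Fibrillar collagens form the fibres of connective tissue and are major products of fibroblasts, whereas type IV collagen forms the sheet-like network of basement membranes, which early endoderm lays down in the embryo. Beaded filament, short-chain network, fibril-associated, anchoring fibril, transmembrane and multiplexin collagens make up the remaining classes. Chains are hydroxylated, folded by chaperones, trimmed and cross-linked by dedicated enzymes, and cells bind the finished protein through integrins and discoidin domain receptors.

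Promoter sequences are shown for a pair of fibrillar genes whose values are given below, as examples of collagen start regions. RefSeq promoter windows on GRCm38.p6 matched 33 of the 42 genes, with 36 windows. In the 250 bases before the annotated start, CCAAT or its reverse ATTGG stood in 13 of 36 collagen windows (36.1%), against 33.8% of 32851 windows of all genes. The GC box letters GGGCGG or CCGCCC stood in 21 collagen windows (58.3%), against 32.7% of all windows, and TATAAA or TTTATA in 5 (13.9%), against 12.4%. Both strands were read, and matches of the 3 motifs were not checked for binding. Col1a2 and Col11a1 are fibrillar collagen genes, read on the plus strand at chr6:4505368-4505617 and chr3:114030290-114030539. The annotated start of a window can lie inside the span of its gene in RefSeq. For Col11a1 that span begins at 114030479, within the printed window, so its second GGGCGG is inside the gene. The starts of Col4a1, Col4a5 and Col4a6, used for distances below, also lie inside the spans of these genes. Capitals mark these motif letters.
Col1a2: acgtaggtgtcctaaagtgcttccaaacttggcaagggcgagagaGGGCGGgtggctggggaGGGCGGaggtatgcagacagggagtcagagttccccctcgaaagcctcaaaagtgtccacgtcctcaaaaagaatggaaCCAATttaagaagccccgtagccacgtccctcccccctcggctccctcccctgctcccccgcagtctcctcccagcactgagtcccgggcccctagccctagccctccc
Col11a1: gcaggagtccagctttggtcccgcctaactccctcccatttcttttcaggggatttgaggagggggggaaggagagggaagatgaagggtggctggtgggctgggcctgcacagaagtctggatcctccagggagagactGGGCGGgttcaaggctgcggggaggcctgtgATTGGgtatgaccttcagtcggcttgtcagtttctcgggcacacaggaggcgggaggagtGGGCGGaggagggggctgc

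A gene entered the tests when it lay above the 40th percentile of its array, on average log2 5.35, on at least 2 of 8 arrays. Of the 42 collagen genes 32 passed, 22 of them on all 8 arrays, and 10 did not (Col4a3, Col4a4, Col4a6, Col6a5, Col11a2, Col13a1, Col17a1, Col19a1, Col24a1 and Col26a1). The dimmest tested member reached 5.35 on its second highest array and the brightest untested one 5.31. Because 10 tested members passed through some lines only, counts over the tested members describe them and do not measure how collagens behave as a class. Differences were tested with limma over all 13819 genes tested, as log2 difference ± SE, with p-values adjusted over all of these genes. The labels call the arrays of a line biological replicates without naming separate cultures, so the p-values speak of the spread among these arrays, which may be technical, and the number of arrays, 2 per line, limits their precision. No label gives a batch, so any difference of batch or parent line cannot be told apart from the mutations. Arrays of the same line correlated at 0.997 to 0.998 over the tested genes.

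Stem cell identity and the feeder layer were read from marker lists. All 12 embryonic stem cell markers, among them the pluripotency factors Pou5f1, Sox2 and Nanog, lay above the filter level on every array. Their summed intensity differed between lines. It was 67150 to 70086 in the exon 2 mutant, 70163 to 71594 in the trap line, 76018 to 77645 in the Hprt knockout and 58283 to 58645 in wild-type. The intensities of 23 feeder fibroblast markers, none of them a collagen, summed to between 74217 and 75515 in the exon 2 mutant, 103701 and 103833 in the trap line, 11105 and 11372 in the Hprt knockout, and 143956 and 144282 in wild-type. All 23 lay above the filter level in the exon 2 mutant, the trap line and wild-type, whereas in the Hprt knockout Lum, Vcam1, Fap and Ogn were below it. Of 12 endoderm markers 10 were above the filter level on both arrays in the exon 2 mutant and 12 in each of the other lines, and their summed intensity was 4998 to 5323 in the exon 2 mutant, 6883 to 7137 in the trap line, 6979 to 7077 in the Hprt knockout and 7896 to 8213 in wild-type. That sum is weighted to Lamb1, the brightest endoderm marker, at 11.94 and 11.96 in wild-type. By the array median of the 12 endoderm markers the Hprt knockout was highest, at 8.39 to 8.48. Wild-type had 8.21 to 8.22, the trap line 7.64 to 7.66 and the exon 2 mutant 7.34 to 7.45. The Hprt knockout thus had by far the least fibroblast signal. The exon 2 mutant had the least endoderm signal by either measure, whereas the line with the most depended on the measure. Fewer cells of a type and less RNA per cell cannot be told apart in these samples, and the part of feeder or endoderm cells in the collagen differences below was not tested.

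**Figure D1:**
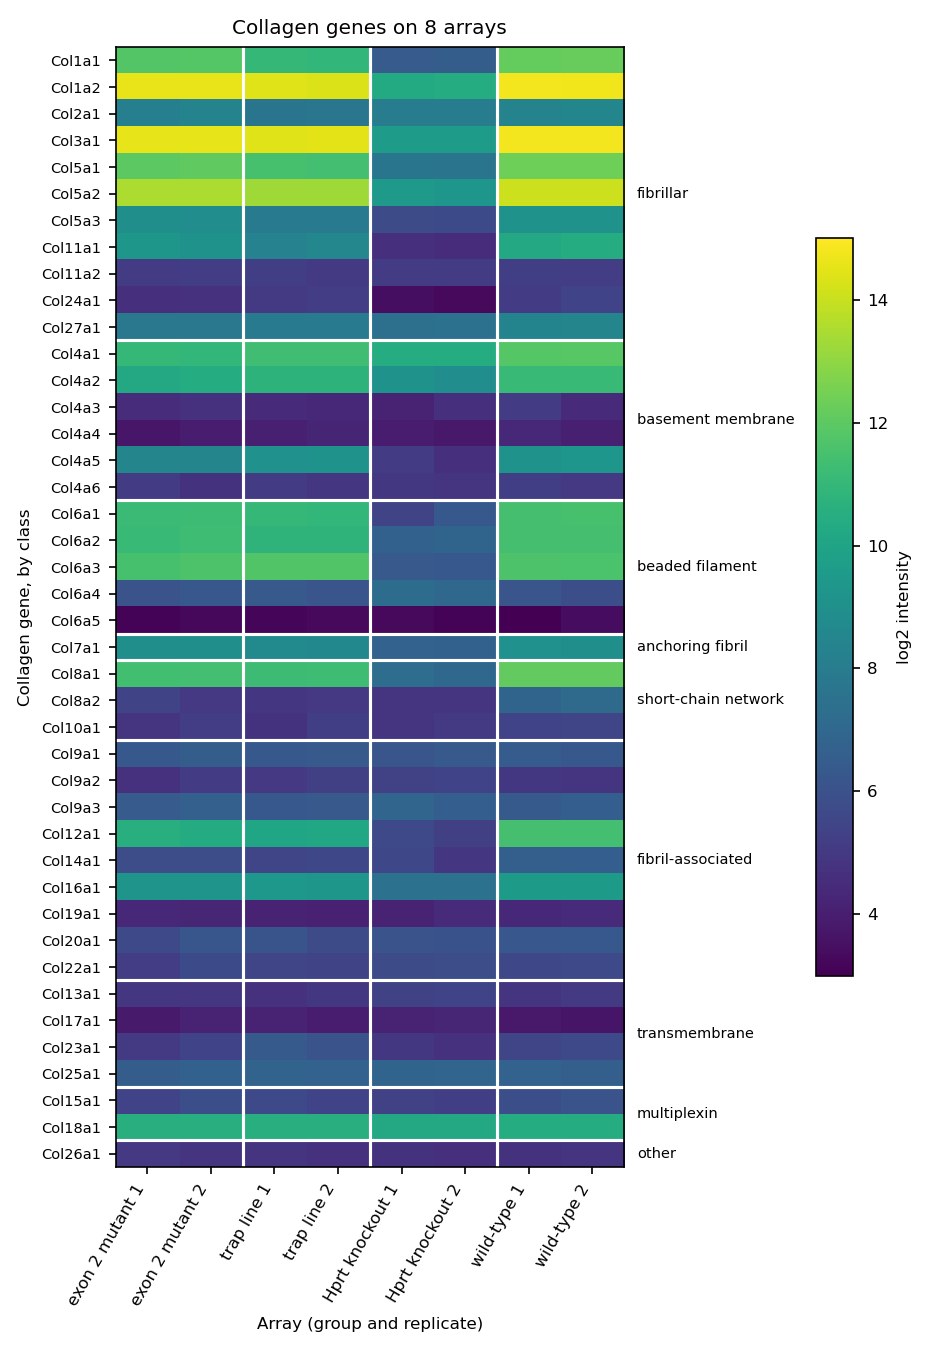
Log2 intensity of the 42 collagen genes (rows, by class) on 8 arrays (columns, 2 per line), with brighter colours for higher levels. Most detected fibrillar genes, Col6a1 to Col6a3, Col8a1 and Col12a1 are darkest in the Hprt knockout, while Col18a1 and Col2a1 have much the same colour in all lines.

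The exon 2 mutant was set against wild-type to ask which collagens differ in cells heterozygous for the exon 2 deletion. Most tested fibrillar genes and the 3 tested basement membrane genes were lower in the mutant, and no tested collagen was called higher. The fibrillar chain gene Col11a1 was 2.09-fold lower and the fibril-associated Col12a1 1.97-fold, and Col8a2, a network collagen chain, was 3.44-fold lower with 1 of 2 mutant arrays above the filter level. Of 32 tested members 17 fell and 15 did not pass, where 55.5% of all genes tested passed, 32.5% as higher and 23.1% as lower. The median over tested members was -0.33, against 0.03 over all genes, -0.66 over the 23 feeder markers, all of which fell, and -0.73 over the 12 endoderm markers, of which 9 fell and 1 rose. By class, 8 of 9 tested fibrillar genes fell, 3 of 3 of the basement membrane, 2 of 3 of the short-chain network, 3 of 8 fibril-associated genes and 1 of 4 of the beaded filaments. The Col5a3 call was lost with the mean of its probe sets (adjusted p = 0.205), the second of which lies below the filter level. Leaving out any of the 4 arrays compared ended the calls of Col1a2 (log2 differences of -0.17 to -0.15) and Col14a1 (-0.81 to -0.76). These are the brightest probe sets, and that of Col1a2 lies near the top of the scale. The dimmer probe sets of Col1a2 gave -0.34 and -0.98 (adjusted p = 0.00915 and 2.67e-04 over all probe sets). The second probe set of Col14a1 gave -1.03 (adjusted p = 2.84e-04 over all probe sets). Its dimmest, below the filter level on every array, gave 0.05 (adjusted p = 0.721 over all probe sets). The Col6a2 call was lost without replicate 1 of the mutant and without either wild-type replicate (log2 differences of -0.25 to -0.19).

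The trap line and wild-type differ by label at Hprt as well as Gtf2i, and whether they share a parent line is not given. All 9 tested fibrillar genes were lower, with a median of -0.80 and a range from -1.90 to -0.33, beside 14.6% of all genes that passed as lower and 26.5% as higher. The feeder markers had 9 falls and 4 rises among 23, with a median of -0.11 and a range of -3.71 to 0.80 that spans that of the fibrillar genes. The endoderm markers had 7 falls and 2 rises among 12, with a median of -0.41. Over all 32 tested members 18 fell, 1 rose and 13 did not pass, where 41.1% of all genes passed, with a median of -0.42 against 0.05 over all genes. Col11a1 was 3.72-fold lower, Col5a3 2.37-fold and Col1a1 2.32-fold, and Col8a2 was below the filter level on both trap arrays. The transmembrane collagen gene Col23a1 was the member that rose, and its call was lost without replicate 1 of the trap line or of wild-type (adjusted p of 0.07 and 0.0702). The calls of Col4a2 and Col16a1 were lost without any of the 4 arrays (adjusted p of 0.073 to 0.0911 and of 0.0843 to 0.145).

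Much larger differences separated the Hprt knockout from wild-type, a comparison that holds the Hprt mutation, any difference of parent line and the loss of most feeder signal. Most tested fibrillar and type VI collagen genes were far dimmer there, while Col6a4 rose. Among genes above the filter level on all arrays compared, Col1a1 was 52.8-fold lower, Col6a1 48.7-fold and Col6a3 38.9-fold. Col3a1 followed at 36.7-fold, Col8a1 at 31.1-fold and Col5a1 at 26.1-fold. The 2 knockout arrays of Col6a1 had an SD of 0.60. Sizes depend on the probes: Col3a1 gave -5.20 with the brighter and -7.25 with the dimmer probe set, and Col12a1 gave -5.96 with its brightest, which was above the filter level on 1 of 2 knockout arrays, and -3.19 with its second. Col9a2 was also called higher, but it passed the filter through the knockout arrays alone. Col10a1 was called lower, but it passed the filter through the wild-type arrays alone. Of 32 tested members 25 fell, 2 rose and 5 did not pass, where 71.5% of all genes passed, 46.4% as higher and 25.1% as lower. The median was -2.09, against 0.16 over all genes and -4.57 over the feeder markers, whose differences ran from -7.23 to -1.68 and all passed. The endoderm list went the other way in part, with 7 rises and 2 falls among 12 and a median of 0.35. Under cyclic loess scaling the all-gene median shifted by -0.16 and the collagen median by -0.18. Relative to all genes the collagen median was -2.25 as deposited and -2.27 under cyclic loess. The calls of Col10a1, Col18a1 and Col9a2 were lost when 1 array was left out, Col10a1 without replicate 1 of the knockout or either wild-type array (adjusted p of 0.0712 to 0.144), Col18a1 without replicate 1 of the knockout or replicate 2 of wild-type (0.057 and 0.0593), and Col9a2 without either replicate 2 (0.0641 and 0.072).

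Setting the trap line against the Hprt knockout leaves the Gtf2i mutation as the labelled difference, since both carry the Hprt mutation. Here 20 of 32 tested members rose, 3 fell and 9 did not pass, where 68.4% of all genes passed, 26.6% as higher and 41.8% as lower. Col6a3 was 42.6-fold higher, Col6a1 33.9-fold, Col3a1 29.1-fold and Col1a1 22.7-fold. Lower in the trap line were Col6a4, Col2a1 and Col9a3, the last of which lost its call without replicate 1 of the knockout or either trap array (adjusted p of 0.057 to 0.0932) and under cyclic loess. The median over tested members was 1.60, against -0.13 over all genes and 4.37 over the feeder markers, of which 22 rose and 1 fell. The all-gene median shifted by 0.14 under cyclic loess, and relative to all genes the collagen median was 1.73 as deposited and 1.72 under that scaling. The endoderm markers had 4 rises and 8 falls among 12 here. The trap line and the Hprt knockout were each also set against wild-type, and wild-type served 3 of the comparisons, so these results share arrays and are not independent of each other. The difference of the exon 2 mutant from wild-type and that of the trap line from the Hprt knockout share none, and a test between them passed for 24 of 32 tested members, 22 lower and 2 higher, where 69.7% of all genes passed, 42.6% as higher and 27.0% as lower.

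**Figure D2:**
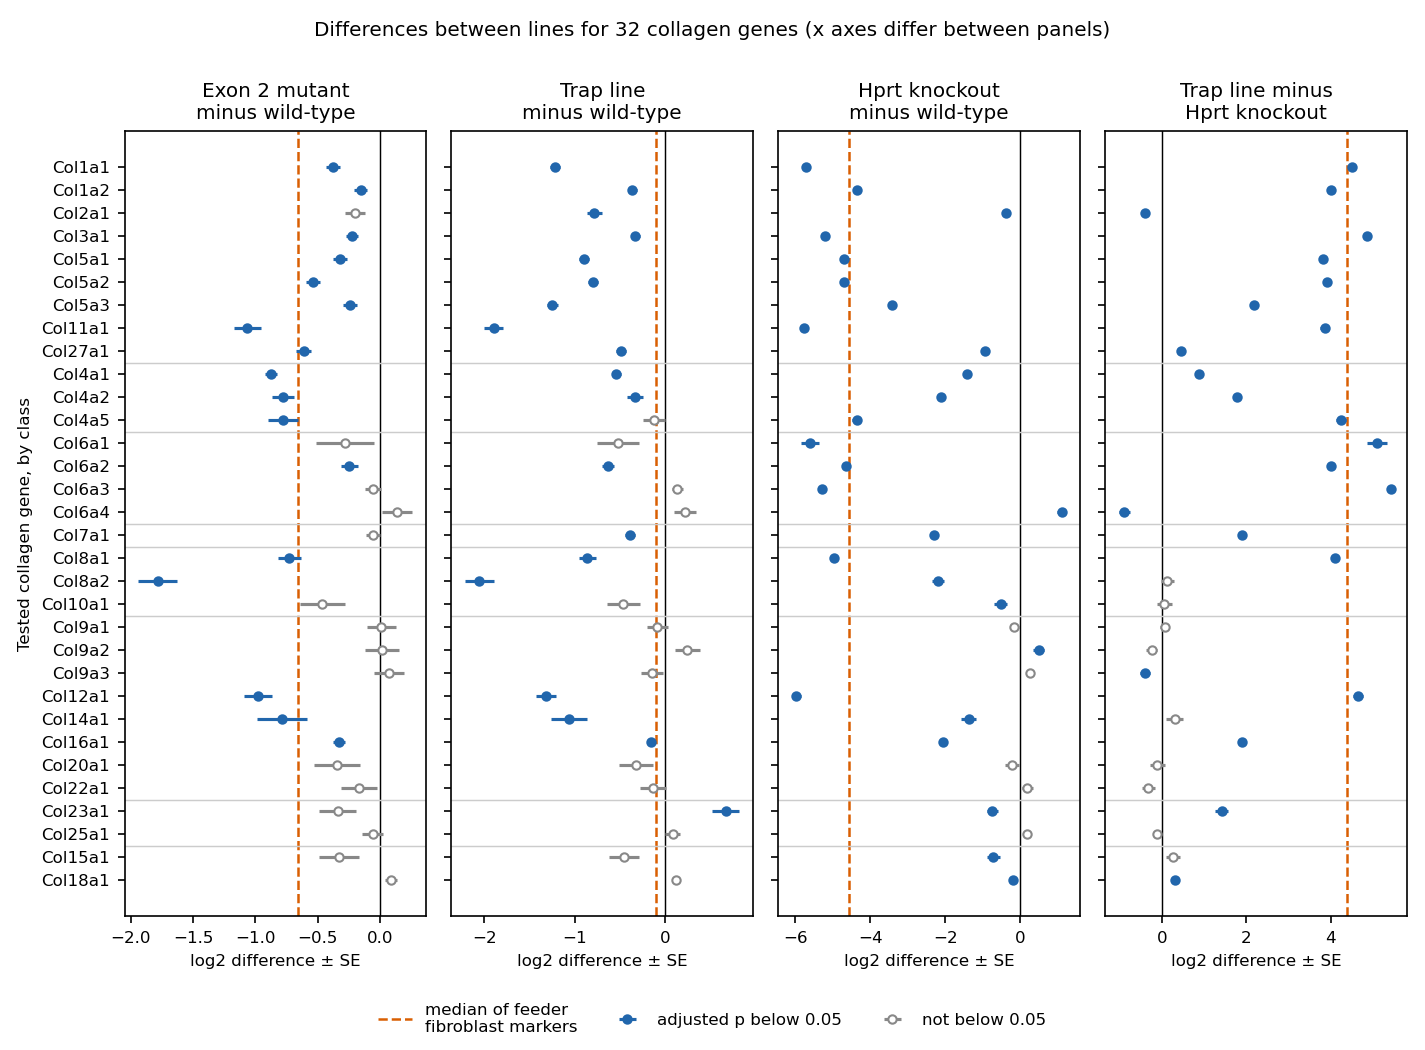
Log2 difference ± SE (x axis, with its own range in each panel) of the 32 tested collagen genes (rows, by class) in 4 comparisons of 2 against 2 arrays, with filled points for an adjusted p below 0.05 and a dashed line at the median of the feeder fibroblast markers. The 9 fibrillar genes lie left of 0 in the trap line minus wild-type panel, at -1.90 to -0.33. All lie left of the feeder marker median of -0.11 and inside the wide feeder marker range of -3.71 to 0.80.

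Among fibrillar collagens, Col1a1 and Col1a2 encode the chains of type I collagen, the main protein of skin, bone and tendon. Col1a1 had levels of 11.80 and 11.84 in the exon 2 mutant, 11.00 and 10.97 in the trap line, 6.43 and 6.53 in the Hprt knockout, and 12.18 and 12.22 in wild-type. The order of lines was wild-type, exon 2 mutant, trap line and Hprt knockout. No line overlapped another, but how many of all genes separate in this way with 2 arrays per line was not counted. It differed by -0.38 ± 0.06 in the exon 2 mutant against wild-type (adjusted p = 0.00124), by -1.22 ± 0.06 in the trap line (adjusted p = 2.18e-05) and by -5.72 ± 0.06 in the Hprt knockout (adjusted p = 4.05e-09). Col1a2, whose promoter is printed above, stood at 14.60 and 14.61 in the exon 2 mutant, 14.41 and 14.38 in the trap line, 10.35 and 10.45 in the Hprt knockout, and 14.77 and 14.75 in wild-type. Its order of lines was that of Col1a1, with differences of -0.16 ± 0.05, -0.36 ± 0.05 and -4.36 ± 0.05 against wild-type. Outside the Hprt knockout it lay close to the highest value on any array, 15.09.

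Col3a1, the type III chain that mixes with type I in elastic tissues, and Col5a1 and Col5a2, the type V chains that start type I fibres, followed the same order. Col3a1 reached 14.57 and 14.56 in the exon 2 mutant, 14.43 and 14.49 in the trap line, 9.60 and 9.58 in the Hprt knockout, and 14.77 and 14.81 in wild-type. Col5a1 was at 11.98 and 12.06, 11.49 and 11.41, 7.67 and 7.62, and 12.35 and 12.34 in these lines. Levels of Col5a2 were 13.54 and 13.53, 13.27 and 13.27, 9.42 and 9.32, and 14.07 and 14.07, again in the order exon 2 mutant, trap line, Hprt knockout and wild-type. None of the 3 genes overlapped between lines, and the share of all genes that do the same was not counted. Against wild-type, Col5a2 differed by -0.54 ± 0.05 in the exon 2 mutant (adjusted p = 2.03e-04), -0.80 ± 0.05 in the trap line (adjusted p = 7.40e-05) and -4.70 ± 0.05 in the Hprt knockout (adjusted p = 4.05e-09). Col3a1 and Col5a2 are neighbours on chromosome 1 with no protein-coding gene between them in RefSeq.

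Col11a1 and Col5a3 were lower than in wild-type in every mutant line. Col11a1, a minor fibrillar chain of cartilage that nucleates fibres, measured 9.35 and 9.17 in the exon 2 mutant, 8.33 and 8.54 in the trap line, 4.62 and 4.53 in the Hprt knockout, and 10.23 and 10.43 in wild-type. Against wild-type, the log2 difference was -1.07 ± 0.11 in the exon 2 mutant (adjusted p = 2.20e-04), and it was -1.90 ± 0.11 in the trap line (adjusted p = 4.06e-05). In the Hprt knockout it was below the filter level, so its difference of -5.76 there depends on the array background. Col5a3 had 8.98 and 8.88 in the exon 2 mutant, 7.91 and 7.93 in the trap line, 5.78 and 5.71 in the Hprt knockout, and 9.16 and 9.18 in wild-type, with -0.24 ± 0.06 for the exon 2 mutant and -1.25 ± 0.06 for the trap line against wild-type. Its order of lines was again that of Col1a1.

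Col2a1, the main collagen of cartilage, and Col27a1 had small differences between the Hprt knockout and wild-type, of -0.39 and -0.95. Col2a1 was at 8.16 and 8.35 in the exon 2 mutant, 7.64 and 7.70 in the trap line, 8.10 and 8.04 in the Hprt knockout, and 8.38 and 8.53 in wild-type. The trap line was the lowest here, by -0.79 ± 0.08 against wild-type (adjusted p = 4.43e-04) and by -0.40 ± 0.08 against the Hprt knockout (adjusted p = 0.00364). Col27a1 showed 7.83 and 7.79 in the exon 2 mutant, 7.98 and 7.88 in the trap line, 7.43 and 7.52 in the Hprt knockout, and 8.41 and 8.44 in wild-type. Its differences from wild-type, -0.61, -0.49 and -0.95, all passed, in the order exon 2 mutant, trap line and Hprt knockout. Neither Col11a2, at 5.05 to 5.23 on all arrays, nor Col24a1, at 3.32 to 5.39, passed the filter.

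Type IV collagens of the basement membrane had an order of lines other than that of Col1a1, with the exon 2 mutant below the trap line. This was not particular to them. Col27a1, Col16a1, Col6a3 and Col23a1 also had the exon 2 mutant below the trap line. The feeder marker median against wild-type was -0.66 in the exon 2 mutant and -0.11 in the trap line. Col4a1 and Col4a2, the chains of the ubiquitous type IV network, lie on opposite strands of chromosome 8 with annotated starts 21 bases apart. For Col4a1 the levels were 11.01 and 10.96 in the exon 2 mutant, 11.30 and 11.32 in the trap line, 10.43 and 10.44 in the Hprt knockout, and 11.83 and 11.88 in wild-type. For Col4a2 they were 10.26 and 10.42, 10.78 and 10.77, 9.11 and 8.88, and 11.13 and 11.10 in the same order of lines. The lines stood in the same order for both genes. In the exon 2 mutant against wild-type the pair differed by -0.87 ± 0.05 (Col4a1, adjusted p = 2.32e-05) and -0.78 ± 0.09 (Col4a2, adjusted p = 3.79e-04). In the Hprt knockout against wild-type the pair differed by -1.42 ± 0.05 and -2.12 ± 0.09, within a range of -7.23 to -1.68 for the feeder markers in the case of Col4a2 and outside it in that of Col4a1. The endoderm laminin gene Lamb1, whose product lies beside type IV collagen, differed there by -0.92 and Lama1 by 0.81, both past the threshold.

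Col4a5, a chain of the type IV network found in kidney and skin and X-linked like Hprt, was under the filter level on both Hprt knockout arrays. It was at 8.44 and 8.48 in the exon 2 mutant, 9.08 and 9.15 in the trap line, 5.07 and 4.68 in the Hprt knockout, and 9.18 and 9.30 in wild-type. The trap line and wild-type differed by -0.12 ± 0.12 (adjusted p = 0.449), the exon 2 mutant and wild-type by -0.78 ± 0.12 (adjusted p = 0.00147), and the Hprt knockout and wild-type by -4.36 ± 0.12 (adjusted p = 1.43e-07). The size of the last depends on the array background and on the probes. A second probe set, at 5.78 and 5.31 in the Hprt knockout, gave -2.16 (adjusted p = 2.52e-05 over all probe sets). The head-to-head neighbour of Col4a5, Col4a6, with an annotated start 1343 bases away, stayed below the filter level, at 4.78 to 5.23 over all arrays. Col4a3 and Col4a4, the chains of the glomerular network, were also below it, at 4.17 to 5.09 and 3.74 to 4.36.

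**Figure D3:**
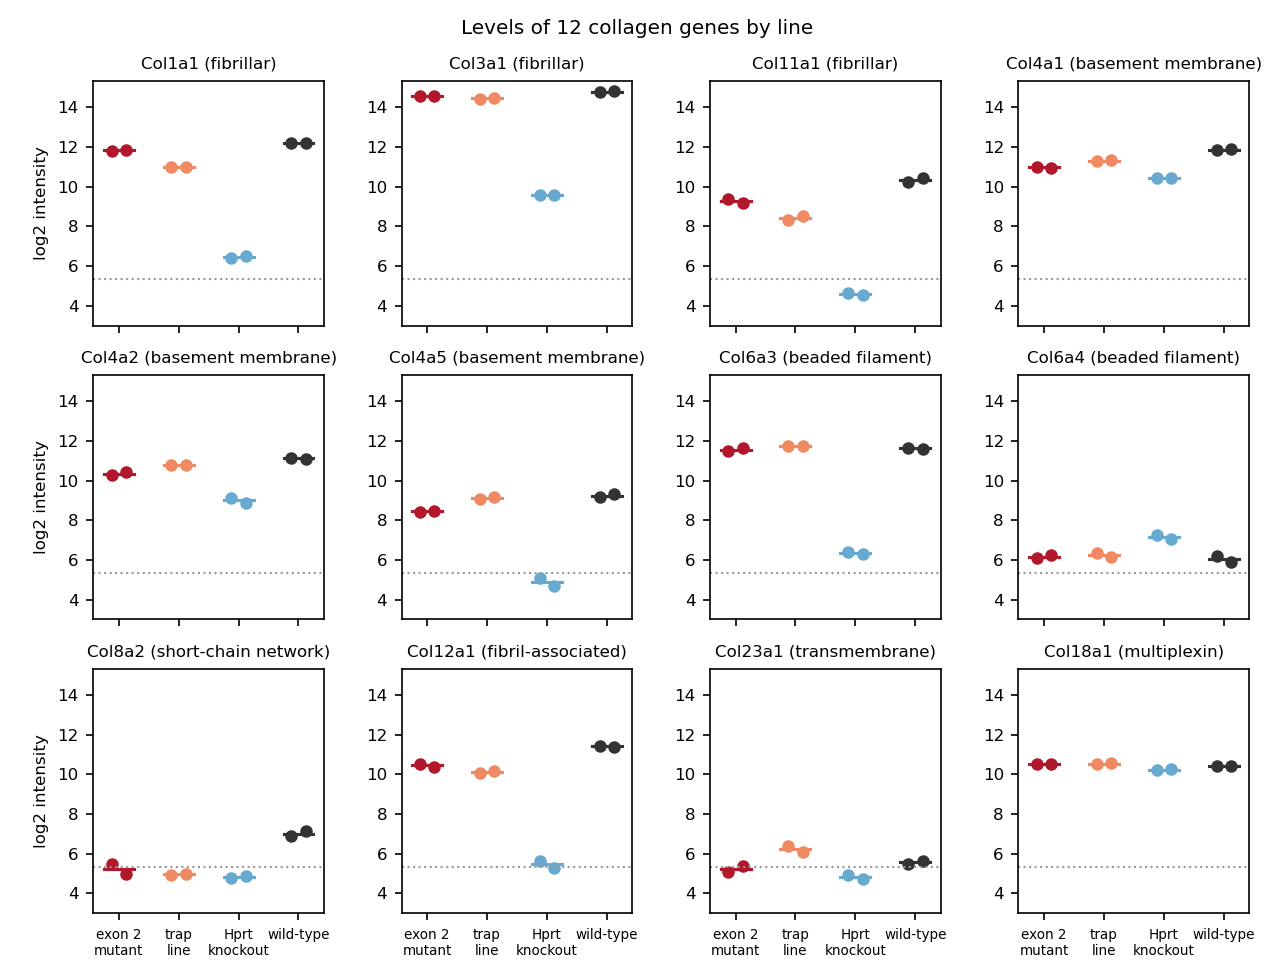
Log2 intensity (y axis) of 12 collagen genes on each array (points) with the mean of each line (bars), and the average filter level of 5.35 as a dotted line. Col1a1 and Col3a1 drop in the Hprt knockout, Col4a1 and Col4a2 much less, Col18a1 hardly, and Col6a4 is highest there.

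Beaded filament collagen VI, which links cells to the surrounding fibres, is built of the Col6a1, Col6a2 and Col6a3 chains in most tissues. Col6a3 was at 11.49 and 11.63 in the exon 2 mutant, 11.76 and 11.73 in the trap line, 6.37 and 6.30 in the Hprt knockout, and 11.63 and 11.60 in wild-type. It differed by -0.06 ± 0.06 in the exon 2 mutant and by 0.13 ± 0.06 in the trap line against wild-type, and neither difference passed (adjusted p = 0.457 and 0.14). Col6a2 had 11.14 and 11.26, 10.81 and 10.81, 6.73 and 6.87, and 11.44 and 11.45 in the order exon 2 mutant, trap line, Hprt knockout and wild-type, and fell in the trap line against wild-type by -0.63 ± 0.07 (adjusted p = 5.21e-04). Col6a1 was 11.18 and 11.25, 11.01 and 10.94, 5.47 and 6.31, and 11.46 and 11.53 in these lines. The spread of Col6a1 in the Hprt knockout, an SD of 0.60 between its 2 arrays, widened its SE to 0.23, and its differences of -0.28 and -0.52 in the exon 2 mutant and trap line did not pass. In the Hprt knockout against wild-type the 3 genes differed by -5.61, -4.64 and -5.28.

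Col6a4 went the opposite way. This gene encodes an alternative type VI chain, and it measured 6.08 and 6.26 in the exon 2 mutant, 6.34 and 6.16 in the trap line, 7.23 and 7.04 in the Hprt knockout, and 6.18 and 5.89 in wild-type. The Hprt knockout stood above the other lines, by 1.10 ± 0.12 against wild-type (adjusted p = 1.51e-04), and the trap line differed from it by -0.89 ± 0.12 (adjusted p = 5.50e-04). Col6a5, the neighbour of Col6a4 on chromosome 9, was at 3.04 to 3.40 on all arrays, below the filter level. Col6a1 and Col6a2 are neighbours on chromosome 10, with Col18a1 close by and 2 protein-coding genes between it and Col6a1.

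The largest fall of any tested member in the exon 2 mutant and in the trap line, each against wild-type, was in a short-chain network gene. Col8a2, a type VIII chain of the cornea and vessel wall, was at 5.47 and 4.99 in the exon 2 mutant, 4.91 and 5.00 in the trap line, 4.79 and 4.86 in the Hprt knockout, and 6.88 and 7.14 in wild-type. Only in wild-type did both arrays exceed the filter level, so the differences of -1.78 ± 0.16, -2.05 ± 0.16 and -2.18 ± 0.16 against wild-type (adjusted p = 1.28e-04, 1.28e-04 and 1.57e-05) depend on the array background. Both arrays of the trap line and of the Hprt knockout were below the filter level, so no comparison between them can be read. Its partner chain Col8a1 had 11.37 and 11.40 in the exon 2 mutant, 11.24 and 11.27 in the trap line, 7.31 and 7.01 in the Hprt knockout, and 12.10 and 12.14 in wild-type, with differences of -0.73, -0.86 and -4.96. For Col8a1 the Hprt knockout lay below all other lines. Col7a1, which anchors epithelia to the tissue beneath, stood at 8.97 and 8.98, 8.69 and 8.59, 6.76 and 6.72, and 9.08 and 8.98 in the order exon 2 mutant, trap line, Hprt knockout and wild-type. It did not pass in the exon 2 mutant (-0.06, adjusted p = 0.449) and fell in the trap line by -0.39 ± 0.06 (adjusted p = 0.00228). Col10a1, the collagen of hypertrophic cartilage, stayed between 4.77 and 5.53. It exceeded the filter level in wild-type alone, so its fall in the Hprt knockout (-0.53 ± 0.18, adjusted p = 0.0321) depends on the array background.

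Fibril-associated collagens, which coat fibres and link them to other matrix, fell into members with a clear signal and dim ones. Col12a1 measured 10.52 and 10.37 in the exon 2 mutant, 10.05 and 10.17 in the trap line, 5.63 and 5.29 in the Hprt knockout, and 11.45 and 11.41 in wild-type. It fell by -0.98 ± 0.11 in the exon 2 mutant (adjusted p = 4.24e-04), -1.32 ± 0.11 in the trap line (adjusted p = 2.15e-04) and -5.96 ± 0.11 in the Hprt knockout (adjusted p = 2.57e-08) against wild-type. Col16a1 had 9.22 and 9.22, 9.41 and 9.37, 7.50 and 7.48, and 9.55 and 9.55 in the order exon 2 mutant, trap line, Hprt knockout and wild-type, with -0.33, -0.16 and -2.06 against wild-type. Col14a1 lay nearer the filter level, at 5.85 and 5.83, 5.52 and 5.60, 5.62 and 4.90, and 6.65 and 6.60, and wild-type was above all other lines. It did not pass in the trap line against the Hprt knockout (0.31, adjusted p = 0.21). Its second probe set gave 1.30 there (adjusted p = 2.99e-05 over all probe sets), with the knockout arrays below the filter level at 4.02 and 4.27. By their brightest probe sets, Col9a1, Col9a3, Col20a1 and Col22a1 stayed between 5.20 and 6.89 on all arrays. Of these differences in the 4 comparisons, that of Col9a3 between the trap line and the Hprt knockout was past the threshold. A second probe set of Col9a1 exceeded the filter level in wild-type alone. Against wild-type it gave -0.64, -0.65 and -0.88 in the exon 2 mutant, trap line and Hprt knockout (adjusted p = 0.0279, 0.036 and 0.00402 over all probe sets), sizes that depend on the array background. Col9a2, at 4.73 to 5.42, was higher in the Hprt knockout than in wild-type by 0.48 ± 0.14 (adjusted p = 0.0149), around the filter level.

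Transmembrane and multiplexin collagens were few and mostly dim. Col23a1, a transmembrane collagen, showed 5.06 and 5.40 in the exon 2 mutant, 6.39 and 6.08 in the trap line, 4.93 and 4.71 in the Hprt knockout, and 5.50 and 5.64 in wild-type. The trap line was above all other arrays, by 1.42 ± 0.15 against the Hprt knockout (adjusted p = 1.39e-04) and by 0.67 ± 0.15 against wild-type (adjusted p = 0.0118). Both Hprt knockout arrays were below the filter level, so the difference of 1.42 depends on the array background. The 2 other probe sets of Col23a1 gave 0.22 and 0.88 for the trap line against wild-type, of which the second passed over all probe sets (adjusted p = 0.425 and 0.0272). Col18a1, the multiplexin of basement membranes whose end fragment is endostatin, was at 10.52 and 10.50 in the exon 2 mutant, 10.53 and 10.56 in the trap line, 10.23 and 10.26 in the Hprt knockout, and 10.41 and 10.45 in wild-type. All 8 arrays lay within 10.23 to 10.56, and the Hprt knockout differed from wild-type by -0.18 ± 0.05 (adjusted p = 0.0106). The second probe set of Col18a1 turned that direction, with 0.30 (adjusted p = 0.0113 over all probe sets), so the direction is not settled. In the same lines its neighbour Col6a1 differed by -5.61. Col25a1 was at 6.54 to 6.92 and no difference passed. Its dimmer second probe set gave 1.08 in the trap line against the Hprt knockout, -0.49 in the Hprt knockout against wild-type and, for the trap line minus wild-type, 0.59 (adjusted p = 1.92e-04, 0.00857 and 0.00976 over all probe sets). The first pair of these ran opposite to the brightest probe set. Col15a1 was at 5.22 to 6.08 and fell only in the Hprt knockout against wild-type among the 4 comparisons (-0.72 ± 0.16, adjusted p = 0.00536). Both Hprt knockout arrays of Col15a1 were below the filter level, so that difference depends on the array background. The members of these and neighbouring classes that did not pass the filter were Col13a1 at 4.73 to 5.40, Col17a1 at 3.66 to 4.27, Col19a1 at 4.12 to 4.49 and Col26a1 at 4.68 to 5.01 over all arrays.

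Several probe sets of the same gene showed how far the size of a difference depends on the probes. In the trap line against wild-type 10 collagen genes had their brightest 2 probe sets called, all 10 with the same direction, and the dimmer one gave the larger difference in 7. The 3 probe sets of Col1a2 gave -0.36, -0.81 and -2.21 from the brightest, at 14.76 in wild-type, to the dimmest, at 6.98. Col3a1 gave -0.33 and -1.15, and Col5a2 -0.80 and -1.62. In these 3 genes the smaller differences belonged to the probe sets nearest the top of the scale. The difference between Col1a1 (-1.22) and Col1a2 (-0.36) on their brightest probe sets therefore does not show that the type I chains changed unequally. The dimmer probe set gave the smaller difference for Col1a1 (-1.22 and -1.13), Col11a1 (-1.90 and -1.86) and Col6a2 (-0.63 and -0.56). From the brightest to the dimmest, Col8a1 gave -0.86, -0.91 and -0.00 and Col5a1 -0.90, -0.96 and -0.52, so their dimmest probe sets gave the smallest differences. In the Hprt knockout against wild-type 14 genes had both probe sets called, all 14 agreeing in direction, with the dimmer one larger in 5. Both counts took their calls from the model over all probe sets. Col18a1 was not among the 14, because its brightest probe set missed the threshold in that model (-0.18, adjusted p = 0.0574). Over the tested genes that probe set was called lower (adjusted p = 0.0106). The second probe set of Col18a1 went the other way, with 0.30 (adjusted p = 0.0113 over all probe sets).

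**Figure D4:**
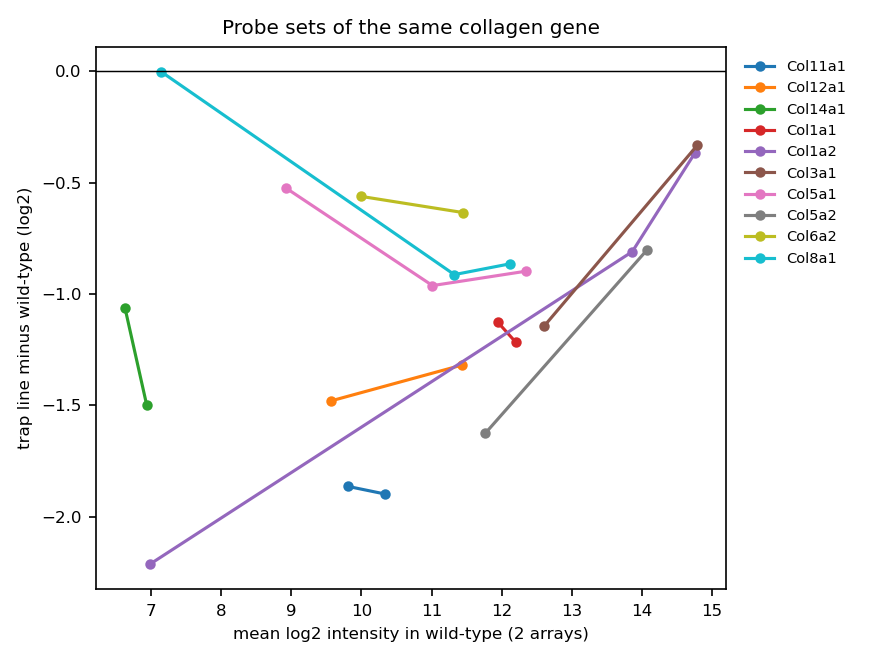
Trap line minus wild-type (log2, y axis) against mean log2 intensity in wild-type (x axis) for probe sets of the 10 collagen genes whose brightest 2 probe sets were both called, with lines joining probe sets of the same gene. Col1a2, Col3a1 and Col5a2 move towards 0 at the highest intensities, from -2.21 to -0.36 for Col1a2, and Col8a1 moves away from 0.

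Genes that make and modify collagen chains were mostly lower in the exon 2 mutant and the Hprt knockout against wild-type and higher in the trap line against the Hprt knockout. Of 31 such genes listed 27 had a named probe set, and all 27 were tested. In the exon 2 mutant against wild-type 22 fell, 5 did not pass and none rose, with a median of -0.40, where 23.1% of all genes were called lower and all 23 feeder markers fell. Tll1, a procollagen-trimming protease (-1.34), the prolyl hydroxylase gene P4ha3 (-1.06), the cross-linking enzyme gene Lox (-0.86) and the folding isomerase gene Fkbp14 (-0.86) fell most. In the trap line against wild-type 13 fell, 3 rose and 11 did not pass, with a median of -0.18, where 14.6% of all genes were called lower and 26.5% higher, and 9 feeder markers fell and 4 rose. P4ha3 (-1.06), Lox (-1.02), P4ha2 (-0.77) and Tll1 (-0.77) were lower and Pcolce2, an enhancer of procollagen trimming (0.61), P3h2 (0.37) and Crtap (0.16) higher. In the Hprt knockout against wild-type 25 fell and 1 rose, with a median of -1.33, where 25.1% of all genes were called lower and all 23 feeder markers fell. The falls were led by Lox (-4.93), its relatives Loxl1 (-4.69) and Loxl3 (-3.77), and P3h3 (-3.67), while the procollagen protease gene Adamts3 rose (0.54). In the trap line against the Hprt knockout 24 rose and 1 fell, with a median of 1.34, where 26.6% of all genes were called higher and 22 of 23 feeder markers rose.

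Among 10 collagen receptors and uptake receptors 9 had a named probe set and 7 were tested. In the exon 2 mutant against wild-type 5 fell and none rose, where 55.5% of all genes passed and 23.1% were lower, with Itga1 (-1.21), Itgb1 (-0.78), Ddr1 (-0.61) and Mrc2 (-0.53) the furthest. In the trap line against wild-type 3 fell, Ddr1 (-0.67), Itgb1 (-0.40) and Itga1 (-0.32), and 4 did not pass, where 41.1% of all genes passed and 14.6% were lower. In the Hprt knockout against wild-type 5 fell, where 71.5% of all genes passed and 25.1% were lower, with Ddr2, a receptor of mesenchymal cells, at -3.56 and the uptake receptor gene Mrc2 at -3.40, while Ddr1, its epithelial counterpart, rose by 0.47. In the trap line against the Hprt knockout 5 rose, where 68.4% of all genes passed and 26.6% were higher, with Ddr2 at 3.89, and Ddr1 fell, with -1.14. Ddr1 and Ddr2 thus passed in opposite directions in both comparisons with the Hprt knockout.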

How the data were processed

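The authors deposited RMA values, per the submitters' processing notes, as log2 intensity for 45101 probe sets on each array. Which RMA software was used is not stated. RMA subtracts background, normalizes arrays by quantiles and summarises probes, so a shift of most genes in a line would not show, and no detection calls were used. Samples were grouped by their titles and genotype labels, 2 arrays per line. Probe sets were named through the platform annotation: 34945 probe sets with a single symbol were used, and 932 with several symbols and 9160 without a symbol were not. Each gene was represented by its probe set with the highest mean. Genes above the 40th percentile on at least 2 arrays entered a limma model (limma 3.58.1, R 4.3.3; lmFit, eBayes; 4 line means over 8 arrays, 4 residual degrees of freedom, 6.86 after moderation), two-sided, with Benjamini-Hochberg adjustment over 13819 genes and a threshold of 0.05. The code was tested on simulated data. An adjusted p of a further probe set comes from the same model over all probe sets. Replicate numbers in the labels do not pair the samples: deviations of same-numbered arrays correlated at -0.28 to 0.18. Alternatives were other scaling, filters, probe sets, moderation, a replicate block, only the compared arrays, and leaving out each array. The members, the lists and the tests were chosen with earlier results of these data known. All collagen genes could be named, and of the other lists up to 4 of the largest rises and falls past the threshold per comparison. Genome coordinates come from RefSeq on GRCm38.p6 and were used for promoters and neighbours only.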

Additional observations from a re-analysis of the deposited data

Results flagged for a closer look

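Exon 2 mutant minus wild-type and trap line minus Hprt knockout share no arrays, and the first minus the second was tested per gene in the same limma model. It passed for 24 of 32 tested collagen genes, 22 of them lower and 2 higher, where 69.7% of all genes passed, 27.0% as lower and 42.6% as higher. The feeder markers, of which 23 of 23 passed as lower with a median of -5.28, moved with it, and their part was not tested. Among fibrillar genes the log2 value was -4.88 for Col1a1, -4.15 for Col1a2, -5.09 for Col3a1, -4.13 for Col5a1, -4.44 for Col5a2, -2.42 for Col5a3, -4.93 for Col11a1 and -1.07 for Col27a1. In the basement membrane class it was -1.75 for Col4a1, -2.56 for Col4a2 and -5.02 for Col4a5. Beaded filament genes had -5.37 (Col6a1), -4.26 (Col6a2), -5.47 (Col6a3) and 1.02 (Col6a4). The others were -1.95 for Col7a1, -4.82 for Col8a1, -1.91 for Col8a2, 0.47 for Col9a3, -5.62 for Col12a1, -1.09 for Col14a1, -2.23 for Col16a1, -1.76 for Col23a1 and -0.22 for Col18a1. For Col11a1, Col4a5, Col8a2 and Col23a1 both Hprt knockout arrays were below the filter level, so these values depend on the array background. Both trap arrays of Col8a2 were below it too, so its trap effect cannot be read.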

How the results depend on the processing

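Counts of collagens called lower in the exon 2 mutant, the trap line and the Hprt knockout against wild-type, and called higher in the trap line against the Hprt knockout, stayed within 1.5 times the reported count under every alternative run. Small counts moved. Called higher in the exon 2 mutant against wild-type was 1 with the mean of probe sets and 1 with the second brightest probe set (Col18a1), against 0. Called lower in the trap line against the Hprt knockout was 1 with the second brightest probe set, against 3. Called higher in the Hprt knockout against wild-type was 4 with median centring, 4 with no filter and 1 with the 60th percentile filter, against 2, and 1 to 2 when arrays were left out. Called higher in the trap line against wild-type was 2 with median centring, 0 with the 60th percentile filter, 3 with the mean of probe sets, 2 with the second brightest probe set and 2 with trend and robust moderation, against 1, and 0 to 1 when arrays were left out. Reversed directions came from the choice of probe set. Col9a1 in the exon 2 mutant against wild-type gave -0.32 with the mean and -0.64 with the second probe set, Col25a1 gave 0.49 and 1.08 in the trap line against the Hprt knockout and -0.49 with the second in the Hprt knockout against wild-type, and Col18a1 there gave 0.060 with the mean and 0.30 with the second. Over single genes and alternatives 1510 results were the same, 43 lost and 40 gained a call. With the replicate number as a block the calls lower were 17, 18 and 25 against wild-type in the exon 2 mutant, trap line and Hprt knockout, as without it, and 20 higher in the trap line against the Hprt knockout; the block ended the calls of Col1a2 in the exon 2 mutant and of Col16a1 in the trap line against wild-type, and the numbers do not pair the arrays. The causes were not tested.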
